A study of Mus musculus with 24 samples.

Results

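The 46 interferon-stimulated genes described here are targets of type I and type II interferon together with 4 STAT and IRF factors that regulate them, chosen by symbol from the 23307 gene models of each table, with earlier results of these data known; the rule itself uses no measured value, and chemokine and MHC genes were not included. They were measured by bulk RNA-seq in mouse macrophages of 2 kinds. Bone marrow derived macrophages (BMDM) were grown for 7 days from C57BL/6 marrow in L929-conditioned medium with M-CSF and were labelled Tet2 knockout or wild type. They were untreated or held in 20 ng/ml interleukin 4 (IL4) for 10 or 24 h, with 2 biological replicates in each of the 6 groups. Tumour-associated macrophages (TAM) were sorted as CD11b+F4/80+ cells 4 weeks after YUMM1.7 melanoma cells, a Braf-mutant mouse line, were injected under the skin of male C57BL/6J mice aged 6 to 8 weeks. The 4 knockout TAM libraries (numbered 3 to 6) came from LysMcre +/wt, Tet2 fl/fl mice, in which Cre is driven by the lysozyme M promoter of myeloid cells, and the 4 wild-type libraries (1, 2, 7 and 8) from LysMcre wt/wt, Tet2 fl/fl mice, which carry the floxed alleles without Cre. The labels do not say whether each TAM library is 1 mouse, nor how the BMDM knockout was made. The 4 libraries of DNA hydroxymethylation in the series were not analysed here.

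Type I interferons signal through a factor that contains STAT2 and IRF9 and binds the interferon-stimulated response element. The targets include sensors of viral RNA and DNA, enzymes that degrade or edit RNA, other antiviral proteins, the ubiquitin-like modifier ISG15, GTPases that attack pathogen vacuoles, and Schlafen proteins. Macrophages express part of this programme at rest. IL4 signals through STAT6 and drives alternative activation, and TET2 is a dioxygenase that oxidises 5-methylcytosine in DNA.

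Levels are the fragments per kilobase and per library total (FPKM) that the authors deposited. Changes are differences of log2(FPKM + 1) ± SE from limma, tested over 10510 genes in BMDM and 9897 in TAM, with Benjamini-Hochberg adjusted p under 0.05 called. This scale understates the changes of genes near or below 1 FPKM. All 46 members passed the filter on low values in both tables, and none was at 0 in any library. Genes of the Ifit, Oas, Gbp and Slfn families have near relatives, so reads could have been split between paralogs when they were counted.

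Tet2 itself did not separate the genotypes, so the groups are named by their labels. Untreated BMDM had 4.02 and 4.48 FPKM of Tet2 in the libraries labelled knockout, against 4.11 and 5.91 in wild type, and TAM had 19.0, 15.7, 16.9 and 14.4 FPKM in knockout against 12.6, 15.8, 16.1 and 7.75 in wild type. The differences of Tet2 were -0.18 ± 0.13 untreated, -0.17 ± 0.13 at 10 h, 0.16 ± 0.13 at 24 h and 0.36 ± 0.22 in TAM (limma adjusted p = 0.576, 0.837, 0.506 and 0.418). Which part of the gene was deleted is not given in the sources used here, so a gene-level FPKM may not show a deletion. All 8 macrophage markers were present in every group. The relative depth estimated from the steps of low values spanned 0.879 to 1.34 over the BMDM libraries and 0.687 to 1 over 7 TAM libraries, and was 0.116 in knockout TAM library 5 (library 1 of wild type set to 1), where 11137 gene models were listed at 0 against 8500 to 9294 in the others.

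Some libraries stood apart in the levels of these genes. Untreated knockout BMDM replicate 1 was above replicate 2 for 44 of the 46 members, by a median of 0.55 on the log2 scale, while over all genes 50.9% were above and the median was 0.00; in the other 5 BMDM groups the members' median between replicates was -0.17 to 0.03. That library was the highest of the 12 for 30 members. In TAM, wild-type library 8 was the lowest for 45 of the 46 members, and knockout libraries 3 and 4 were the highest pair for 43. Counts and medians that rest on these libraries are given with and without them, as are the calls that end without untreated knockout replicate 1.

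**Figure D1:**
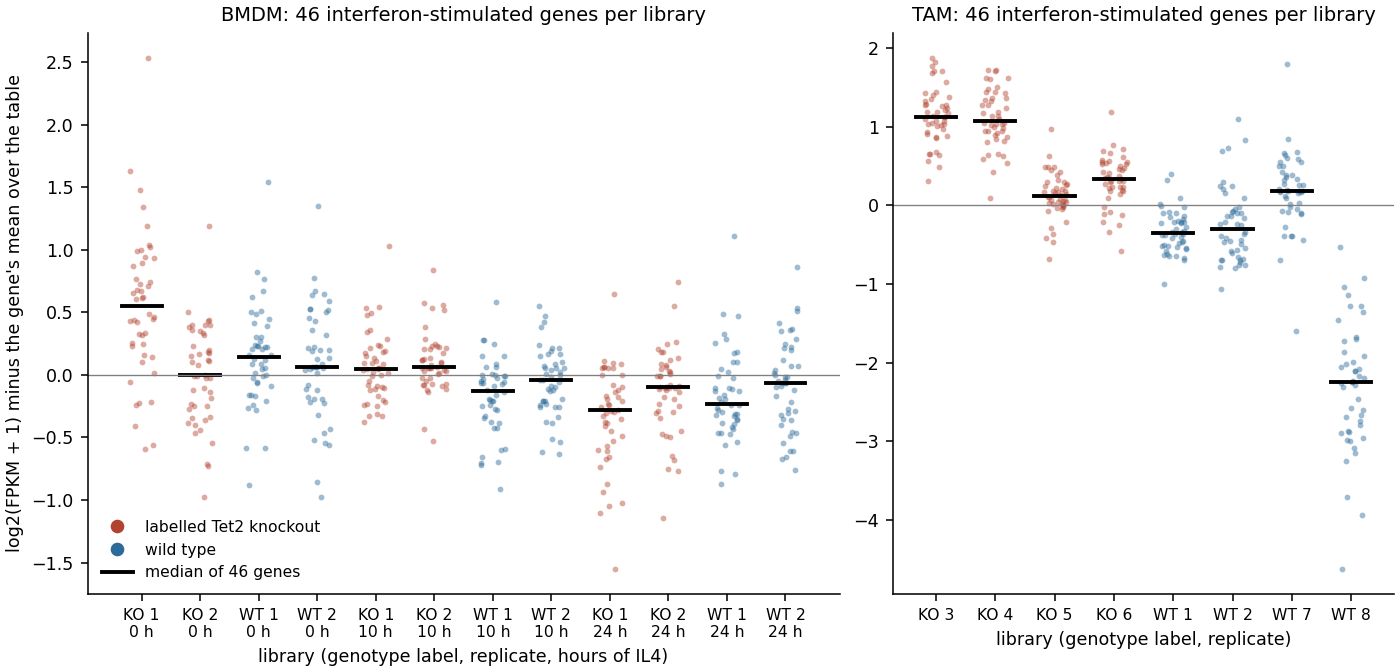
Each point is 1 of the 46 interferon-stimulated genes in 1 library, as its log2(FPKM + 1) minus that gene's mean over the libraries of the same table, for BMDM and for TAM. Untreated knockout BMDM replicate 1 had a median of 0.55, knockout TAM libraries 3 and 4 had 1.13 and 1.08, and wild-type TAM library 8 had -2.25.

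RefSeq promoter windows on GRCm38.p6, from 250 bases before to 50 bases after the gene start, were found for 36 of the 46 members; Dhx58, Zbp1, Oas2, Mx1, Mx2, Rtp4, Usp18, Parp9, Parp14 and Iigp1 had none. The response element core GAAANNGAAA, or TTTCNNTTTC on the other strand, was present in 21 of the 36 members (58.3%) against 3.99% of all 27025 genes with a window. The STAT6-type palindrome TTCNNNNGAA, which reads the same on both strands, was present in 6 of 36 (16.7%) against 8.01% of genes. A match describes the letters and does not show that a factor binds there. The windows of 4 genes are printed because these genes carry the main contrasts below: Ifit3 and Gbp2 share the 10 letters TTTCACTTTC and in IL4 Ifit3 fell while Gbp2 rose, Isg15 has 3 overlapping cores, and Parp11 was the member called in TAM. Capitals mark the response element cores. Parp11 has 2 windows, and the one printed was taken because it holds a core. Its other window, at chr6:127453377-127453676, has none. The windows are Ifit3 at chr19:34583279-34583578 on the plus strand, Gbp2 at chr3:142620413-142620712 on the plus strand, Isg15 at chr4:156200769-156201068 on the minus strand and Parp11 at chr6:127446590-127446889 on the plus strand.
Ifit3: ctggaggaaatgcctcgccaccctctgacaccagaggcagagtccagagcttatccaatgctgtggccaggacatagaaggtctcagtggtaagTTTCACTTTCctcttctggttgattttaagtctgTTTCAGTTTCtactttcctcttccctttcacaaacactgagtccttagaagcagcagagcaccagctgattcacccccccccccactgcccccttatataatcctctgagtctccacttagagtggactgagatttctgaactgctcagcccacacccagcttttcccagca
Gbp2: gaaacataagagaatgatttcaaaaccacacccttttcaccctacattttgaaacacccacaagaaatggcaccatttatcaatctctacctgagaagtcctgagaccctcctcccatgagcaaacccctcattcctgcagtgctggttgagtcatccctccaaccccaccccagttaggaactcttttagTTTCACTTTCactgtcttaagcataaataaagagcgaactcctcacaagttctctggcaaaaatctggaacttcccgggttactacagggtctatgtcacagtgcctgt
Isg15: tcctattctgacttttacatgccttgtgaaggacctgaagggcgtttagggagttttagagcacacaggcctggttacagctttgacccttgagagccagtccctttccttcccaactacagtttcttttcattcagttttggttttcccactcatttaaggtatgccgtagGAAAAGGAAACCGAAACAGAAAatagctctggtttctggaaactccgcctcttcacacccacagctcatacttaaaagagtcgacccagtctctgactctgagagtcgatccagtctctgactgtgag
Parp11: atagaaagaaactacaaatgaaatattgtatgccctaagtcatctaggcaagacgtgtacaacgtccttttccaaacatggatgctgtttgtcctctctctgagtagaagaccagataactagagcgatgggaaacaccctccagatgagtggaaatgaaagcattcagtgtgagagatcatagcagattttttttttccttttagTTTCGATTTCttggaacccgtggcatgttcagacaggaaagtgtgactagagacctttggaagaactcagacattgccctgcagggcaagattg

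The members spanned a wide range of levels in BMDM. Bst2, which encodes tetherin, a membrane protein that holds budding virus at the cell, and Slfn2 were the most abundant, at 129 to 244 and 164 to 263 FPKM over the 12 libraries. Irf1, Oas1a and Samhd1 followed at 30.2 to 83.9, 30.7 to 55.7 and 33.3 to 56.7 FPKM. Slfn1, Slfn4, Ifi44, Isg20, Oasl1 and Gbp5 were the least abundant, with highest values of 1.06, 2.39, 3.13, 1.47, 2.42 and 2.98 FPKM. None of the 17 interferon genes in the table reached 1 FPKM in any BMDM library.

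Most of the RNA-binding antiviral genes were lower after IL4, and a smaller group led by Gbp2 and Irf1 was higher. After 24 h, 24 of the 46 members were lower and 3 higher in knockout BMDM than in untreated knockout cells, where 17.1% of all genes were called lower and 26.5% higher. In wild-type BMDM 16 were lower and 8 higher, where 20.3% of all genes were called lower and 29.7% higher. After 10 h, 12 were lower and 8 higher in knockout cells (all genes 14.6% lower and 24.2% higher), and 12 lower and 6 higher in wild-type cells (all genes 14.2% lower and 28.2% higher). The members' median change at 24 h was -0.54 in knockout and -0.25 in wild type, against 0.07 and 0.06 over all genes.

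The knockout counts leaned on the untreated library that stood apart. Without untreated knockout replicate 1, 13 members were lower and 6 higher at 24 h (all genes 12% and 19.7%), with a median of -0.23, and 5 were lower and 8 higher at 10 h (all genes 9.66% and 16.6%), with a median of 0.04. At 24 h 11 calls were lost and 3 gained, and at 10 h 8 were lost and 1 gained, and these are given below by gene. In wild-type cells the split moved with the scaling: the 6 higher and 12 lower at 10 h became 5 and 17 under median-of-ratios scaling and 3 and 17 under quantile normalization, and the 8 and 16 at 24 h became 4 and 20 under quantile normalization. In knockout cells at 10 h quantile normalization gave 6 higher and 16 lower. The 24 h count in wild type, 24 in all, was 14 with no filter on low values and 15 without untreated replicate 2. At 10 h the count was 10 and 12 of 46 in knockout without 10 h replicates 1 and 2, and 11 in wild type without 10 h replicate 1. In bulk RNA a smaller share of cells that express a gene and less of its RNA in each cell cannot be told apart. The summed FPKM of the 8 macrophage markers moved with IL4, to 7296 and 7356 at 24 h in knockout cells against 15971 and 15144 untreated, and to 9707 and 11334 in wild-type cells against 19554 and 15204 untreated; its part in these changes was not tested.

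**Figure D2:**
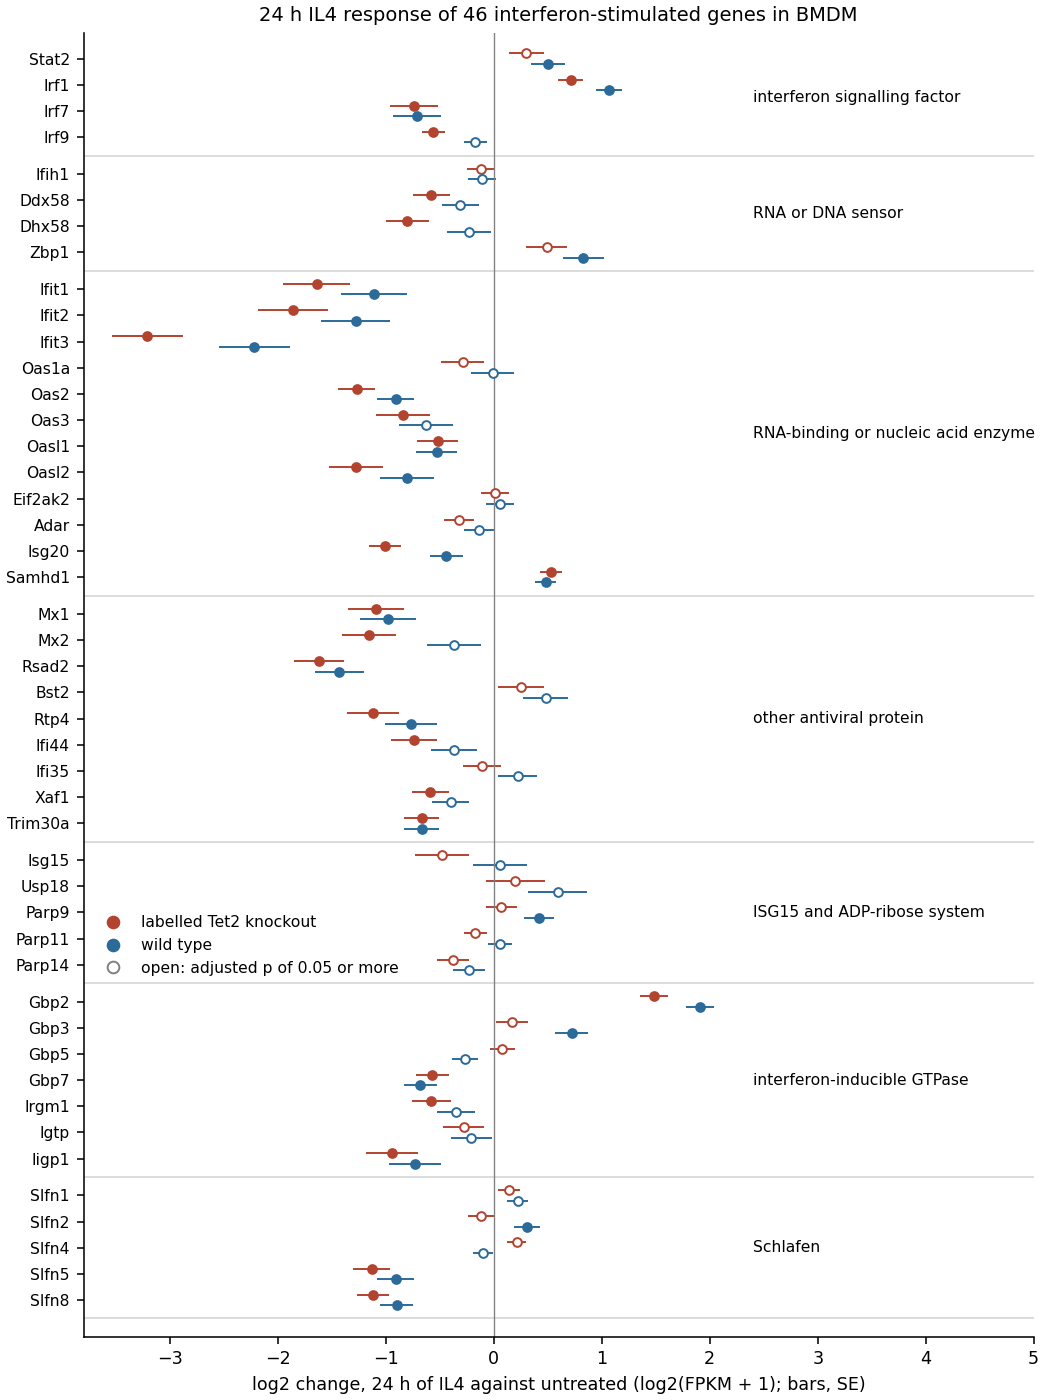
The log2(FPKM + 1) change after 24 h of IL4 against untreated cells, for the 46 members grouped by role, in knockout and in wild-type BMDM. Ifit3 lies at -3.21 in knockout and -2.22 in wild type and Gbp2 at 1.48 and 1.91.

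Among the 4 signalling factors, Irf1, a transcription factor of the interferon gamma response, rose in both genotypes. In knockout cells Irf1 had 37.3 and 33.6 FPKM untreated, 78.9 and 66.1 at 10 h and 57.8 and 59.0 at 24 h, and in wild-type cells 36.8 and 30.2 FPKM untreated, 83.9 and 81.9 at 10 h and 70.0 and 72.1 at 24 h. No treated library overlapped an untreated one, and the changes at 24 h were 0.71 ± 0.12 in knockout and 1.07 ± 0.12 in wild type (limma adjusted p = 8.6e-04 and 4.8e-05), after 1.01 ± 0.12 and 1.29 ± 0.12 at 10 h (limma adjusted p = 1.0e-04 and 2.0e-05). Irf7, which amplifies type I interferon production, was higher at 10 h and lower at 24 h in knockout cells: it had 25.9 and 13.5 FPKM untreated, 33.9 and 29.6 at 10 h and 10.2 and 11.5 at 24 h. In wild-type cells Irf7 had 15.8 and 14.8 FPKM untreated, 19.7 and 18.2 at 10 h and 8.34 and 9.74 at 24 h. In both genotypes the 10 h libraries lay above and the 24 h libraries below every untreated library. The 10 h change of Irf7 was 0.73 ± 0.22 in knockout (limma adjusted p = 0.0258) and 0.29 ± 0.22 in wild type (limma adjusted p = 0.330), and the 24 h changes were -0.74 ± 0.22 and -0.71 ± 0.22 (limma adjusted p = 0.0212 and 0.0235). The 24 h change of Irf7 in knockout was -0.29 without untreated knockout replicate 1 and was not called (limma adjusted p = 0.156).

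Stat2 and Irf9, whose proteins belong to the factor that binds the response element, moved less. Irf9 fell at 24 h in knockout cells by 0.56 ± 0.11 (limma adjusted p = 0.00260) and had -0.17 ± 0.11 in wild type (limma adjusted p = 0.239); its levels were 13.9 to 23.9 FPKM over the 12 libraries. Stat2 rose at 24 h in wild-type cells by 0.50 ± 0.16 (limma adjusted p = 0.0274), at 5.97 to 11.6 FPKM, and in knockout it was called without untreated replicate 1 (0.57, limma adjusted p = 0.0157), against 0.30 with all libraries (limma adjusted p = 0.167). Several calls here rested on single libraries. At 10 h in knockout cells Irf7 was not called without untreated replicate 2 or without either treated library (limma adjusted p = 0.192, 0.139 and 0.0610), and Irf9, at -0.42 ± 0.11 (limma adjusted p = 0.0154), was not called without untreated replicate 1 or either treated library (limma adjusted p = 0.152, 0.0875 and 0.0566). Stat2 in wild type was not called without either untreated library or without 24 h replicate 2 (limma adjusted p = 0.0989, 0.0690 and 0.157).

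Of the 4 nucleic acid sensors Zbp1 rose and the RNA helicases did not. Zbp1, which senses Z-form nucleic acid, was higher at 10 h in both genotypes: knockout cells had 11.4 and 7.72 FPKM untreated, 20.1 and 20.3 at 10 h and 11.3 and 16.2 at 24 h, and wild-type cells 8.65 and 8.90 FPKM untreated, 14.1 and 17.9 at 10 h and 15.3 and 17.5 at 24 h. Every 10 h library was above every untreated one. The 10 h changes of Zbp1 were 1.03 ± 0.19 in knockout and 0.79 ± 0.19 in wild type (limma adjusted p = 0.00166 and 0.00693; 0.0644 in wild type without 10 h replicate 2), and the 24 h changes were 0.49 ± 0.19 and 0.83 ± 0.19 (limma adjusted p = 0.0588 and 0.00440). Ddx58, which encodes the viral RNA sensor RIG-I, fell at 10 h by 0.55 ± 0.17 in knockout and 0.46 ± 0.17 in wild type (limma adjusted p = 0.0237 and 0.0456), at 6.46 to 14.2 FPKM. Ifih1, which encodes MDA5, and Dhx58, which encodes LGP2, were at 6.29 to 10.7 and 7.92 to 19.4 FPKM. Ifih1 was called lower in knockout cells at 10 h, and Dhx58 and Ddx58 in knockout cells at 24 h. All of these knockout calls ended without untreated replicate 1, where Ddx58 had -0.25 and Ifih1 -0.16 at 10 h (limma adjusted p = 0.212 and 0.362) and Dhx58 had -0.48 and Ddx58 -0.27 at 24 h (limma adjusted p = 0.0708 and 0.155). The 24 h change of Zbp1 in knockout was called without that library, at 0.74 (limma adjusted p = 0.0191).

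Among the RNA-binding proteins and nucleic acid enzymes Ifit3 had the largest fall at 24 h in both genotypes. Of these 12 members 8 were lower at 24 h in knockout (6 without untreated replicate 1) and 7 in wild type, and Samhd1, a deoxynucleotide hydrolase, was higher in both. Ifit3, which binds viral RNA with its family members, had 52.2 and 20.0 FPKM untreated, 6.07 and 5.81 at 10 h and 2.14 and 3.15 at 24 h in knockout cells. In wild-type cells it had 25.7 and 22.4 FPKM untreated, 3.89 and 4.92 at 10 h and 4.30 and 4.44 at 24 h. The treated and untreated libraries of Ifit3 were far apart in both genotypes, although the untreated knockout replicates differed from each other. Its 24 h changes were -3.21 ± 0.33 in knockout and -2.22 ± 0.33 in wild type (limma adjusted p = 2.3e-05 and 3.0e-04), and its 10 h changes were -2.27 ± 0.33 and -2.21 ± 0.33 (limma adjusted p = 3.4e-04 and 3.8e-04). Without untreated knockout replicate 1 the 24 h change of Ifit3 in knockout cells was -2.54.

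Ifit2 and Ifit1 fell. Ifit2 fell at 24 h by 1.86 ± 0.32 in knockout and 1.28 ± 0.32 in wild type (limma adjusted p = 9.4e-04 and 0.00746), and the changes of Ifit1 were -1.64 ± 0.31 in knockout and -1.11 ± 0.31 in wild type (limma adjusted p = 0.00174 and 0.0137). Their levels spanned 7.19 to 50.5 and 2.77 to 19.5 FPKM. Oas2, an oligoadenylate synthase that switches on RNase L, had 6.22 and 3.79 FPKM untreated, 2.60 and 2.96 at 10 h and 1.28 and 1.62 at 24 h in knockout cells and 3.76 and 4.46 FPKM untreated, 1.98 and 2.09 at 10 h and 1.61 and 1.84 at 24 h in wild-type cells. Every treated library was below every untreated one. The 24 h changes of Oas2 were -1.27 ± 0.17 and -0.91 ± 0.17 (limma adjusted p = 1.6e-04 and 0.00139), after -0.64 ± 0.17 and -0.75 ± 0.17 at 10 h (limma adjusted p = 0.0123 and 0.00524). The 10 h call in knockout was lost without untreated replicate 1 or without 10 h replicate 1 (limma adjusted p = 0.108 and 0.0815).

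Oas3 fell at 10 h in wild type by 1.07 ± 0.25 (limma adjusted p = 0.00566, and 0.0584 without untreated replicate 2), at 2.00 to 8.98 FPKM. Oasl2, an Oas-like protein, fell at 10 h by 1.22 ± 0.25 in knockout and 1.17 ± 0.25 in wild type (limma adjusted p = 0.00286 and 0.00350), at 3.31 to 18.7 FPKM. Oasl1, which represses Irf7 translation, spanned 0.666 to 2.42 FPKM and was called lower at 24 h in both genotypes with all libraries. In knockout Oasl1 had -0.18 without untreated replicate 1 (limma adjusted p = 0.407) and Oas3, called with all libraries, had -0.40 (limma adjusted p = 0.164). Ifit2 and Isg20 at 10 h in knockout were likewise called with all libraries (limma adjusted p = 0.0316 and 0.0204) and not without that one, at -0.37 and -0.50 (limma adjusted p = 0.251 and 0.0807). Isg20, an RNA exonuclease, had 1.44 and 1.45 FPKM untreated, 0.568 and 0.923 at 10 h and 0.381 and 0.0726 at 24 h in knockout cells and 1.08 and 1.47 FPKM untreated, 0.768 and 0.749 at 10 h and 0.615 and 0.726 at 24 h in wild-type cells. All but the untreated libraries were below 1 FPKM, and the 24 h changes were -1.01 ± 0.15 in knockout and -0.44 ± 0.15 in wild type (limma adjusted p = 2.8e-04 and 0.0279).

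Samhd1 had 38.9 and 33.3 FPKM untreated, 48.1 and 46.5 at 10 h and 49.5 and 55.6 at 24 h in knockout cells and 38.2 and 40.3 FPKM untreated, 51.3 and 49.0 at 10 h and 56.7 and 53.9 at 24 h in wild-type cells. All treated libraries lay above all untreated ones. The 24 h changes of Samhd1 were 0.53 ± 0.10 in knockout and 0.48 ± 0.10 in wild type (limma adjusted p = 0.00197 and 0.00325). Its 10 h changes, 0.39 ± 0.10 and 0.34 ± 0.10 (limma adjusted p = 0.0136 and 0.0219), were not called without single libraries, and quantile normalization ended them and the 24 h call in wild type (limma adjusted p = 0.248 and 0.850 at 10 h, 0.300 at 24 h). In knockout these were untreated replicate 2 and both treated libraries (limma adjusted p = 0.146, 0.0846 and 0.0539), and in wild type untreated replicate 1 and both treated libraries (limma adjusted p = 0.0556, 0.130 and 0.0724). Oas1a, a further oligoadenylate synthase, Eif2ak2, the RNA-activated kinase PKR, and Adar, an RNA-editing deaminase, passed the test in neither genotype at either time, at 30.7 to 55.7, 10.9 to 15.0 and 7.13 to 11.3 FPKM.

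Of the 9 other antiviral proteins 7 were lower at 24 h in knockout and 4 in wild type, and Rsad2, which encodes viperin, had the largest fall of them. Without untreated knockout replicate 1 the knockout count was 4, namely Rsad2, Rtp4, Mx2 and Trim30a. Rsad2 had 23.9 and 15.8 FPKM untreated, 13.7 and 17.0 at 10 h and 5.01 and 6.32 at 24 h in knockout cells and 20.2 and 20.3 FPKM untreated, 6.91 and 11.8 at 10 h and 6.33 and 7.55 at 24 h in wild-type cells. The 10 h knockout libraries spanned the lower untreated knockout library, whereas in wild type every treated library was below every untreated one. The 24 h changes of Rsad2 were -1.62 ± 0.23 and -1.43 ± 0.23 (limma adjusted p = 2.8e-04 and 6.3e-04), and its 10 h changes were -0.33 ± 0.23 and -1.08 ± 0.23 (limma adjusted p = 0.298 and 0.00411).

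Trim30a, a ubiquitin ligase that restrains Toll-like receptor signalling, was lower at 10 h by 0.82 ± 0.16 in knockout and 0.75 ± 0.16 in wild type (limma adjusted p = 0.00203 and 0.00324) and at 24 h by 0.67 ± 0.16 and 0.67 ± 0.16 (limma adjusted p = 0.00528 and 0.00474), at 15.3 to 37.8 FPKM. The antiviral GTPase gene Mx1 and Rtp4 were called lower at 24 h in both genotypes, at 3.50 to 13.1 and 9.02 to 33.9 FPKM, and Mx2, Ifi44 and Xaf1, a proapoptotic protein, in knockout, at 0.825 to 4.18, 0.268 to 3.13 and 2.60 to 6.28 FPKM. The 24 h changes of Mx1, Ifi44 and Xaf1 in knockout were -0.67, -0.32 and -0.32 without untreated replicate 1 and were not called (limma adjusted p = 0.0507, 0.0913 and 0.161). Ifi44 at 10 h in knockout had -0.76 ± 0.21 (limma adjusted p = 0.0145), and 0.0804, 0.0805 and 0.0501 without untreated replicate 1 and without each treated library. Bst2 rose at 10 h in wild type by 0.61 ± 0.21 (limma adjusted p = 0.0380), but not without untreated replicate 2 or either treated library (limma adjusted p = 0.230, 0.147 and 0.107), and in knockout it had 0.55 ± 0.21 (limma adjusted p = 0.0585) and was called without untreated replicate 1, at 0.83 (limma adjusted p = 0.0222). Ifi35 passed in neither, at 15.3 to 23.4 FPKM.

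Few of the 5 ISG15 and ADP-ribosylation genes moved. At 24 h 1 of them passed in wild type and none in knockout, and at 10 h none passed in either. Without untreated knockout replicate 1, Usp18 passed at 24 h in knockout, at 0.69 (limma adjusted p = 0.0277), against 0.20 with all libraries (limma adjusted p = 0.569). Isg15 had 13.7 and 7.15 FPKM untreated, 10.3 and 11.5 at 10 h and 5.74 and 8.05 at 24 h in knockout cells and 11.4 and 11.2 FPKM untreated, 7.83 and 8.30 at 10 h and 9.83 and 14.2 at 24 h in wild-type cells, and its 24 h changes were -0.48 ± 0.25 and 0.06 ± 0.25 (limma adjusted p = 0.141 and 0.857). Usp18, which removes ISG15 and dampens interferon receptor signalling, had 9.64 and 4.41 FPKM untreated, 4.87 and 3.82 at 10 h and 6.50 and 9.18 at 24 h in knockout cells and 6.23 and 4.99 FPKM untreated, 3.61 and 4.32 at 10 h and 8.78 and 9.07 at 24 h in wild-type cells. In wild type the 24 h libraries were the highest and the 10 h libraries the lowest, and Usp18 was higher at 24 h than at 10 h by 1.00 ± 0.27 (limma adjusted p = 0.0197; 0.0571 to 0.111 without 1 of the 4 libraries compared). Parp9 rose at 24 h in wild type by 0.42 ± 0.14 (limma adjusted p = 0.0255; 0.159 without untreated replicate 2, 0.0968 without 24 h replicate 1), at 15.4 to 25.0 FPKM. Parp14 and Parp11, further ADP-ribosyltransferases, passed in neither genotype, at 20.5 to 33.8 and 3.19 to 5.20 FPKM.

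Of the 7 interferon-inducible GTPases, Gbp2 rose in both genotypes at 24 h, and with all libraries Gbp7 fell in both. Gbp2, a guanylate-binding protein, had 18.1 and 13.7 FPKM untreated, 32.9 and 31.6 at 10 h and 44.1 and 47.2 at 24 h in knockout cells. In wild-type cells it had 14.7 and 13.7 FPKM untreated, 23.4 and 25.7 at 10 h and 61.1 and 51.5 at 24 h. The libraries were ordered by time in both genotypes with no overlap. The 24 h changes of Gbp2 were 1.48 ± 0.13 and 1.91 ± 0.13 (limma adjusted p = 1.0e-05 and 1.5e-06), after 0.99 ± 0.13 and 0.75 ± 0.13 at 10 h (limma adjusted p = 2.1e-04 and 0.00125). Gbp7 fell at 24 h by 0.57 ± 0.15 in knockout and 0.68 ± 0.15 in wild type (limma adjusted p = 0.0122 and 0.00401), at 3.17 to 7.49 FPKM. Gbp3 rose at 24 h in wild type by 0.72 ± 0.15 (limma adjusted p = 0.00276) and had 0.17 ± 0.15 in knockout (limma adjusted p = 0.380), at 5.46 to 11.8 FPKM. Gbp5, which promotes inflammasome assembly, rose at 10 h in knockout by 0.68 ± 0.12 (limma adjusted p = 0.00121), at 1.09 to 2.98 FPKM. Of the immunity-related GTPases, Iigp1 was called lower at 24 h in both genotypes and Irgm1 in knockout, at 1.24 to 5.58 and 17.5 to 37.2 FPKM, and Igtp in neither, at 7.21 to 12.5 FPKM. The falls of Gbp7, Iigp1 and Irgm1 in knockout were not called without untreated replicate 1, where the 24 h changes were -0.52, -0.57 and -0.30 (limma adjusted p = 0.0717, 0.0866 and 0.201).

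Of the 5 Schlafen genes, a family that acts on RNA and on cell growth, Slfn5 and Slfn8 fell in both genotypes. Slfn5 had 38.9 and 24.9 FPKM untreated, 15.6 and 17.6 at 10 h and 12.6 and 14.9 at 24 h in knockout cells and 26.9 and 27.2 FPKM untreated, 14.6 and 16.0 at 10 h and 14.7 and 13.2 at 24 h in wild-type cells. Slfn8 had 28.1 and 19.6 FPKM untreated, 12.3 and 13.8 at 10 h and 9.32 and 11.3 at 24 h in knockout cells and 20.3 and 21.4 FPKM untreated, 14.3 and 13.3 at 10 h and 11.0 and 10.4 at 24 h in wild-type cells. Every treated library was below every untreated one for both genes. At 24 h Slfn5 fell by 1.13 ± 0.17 in knockout and 0.91 ± 0.17 in wild type (limma adjusted p = 4.3e-04 and 0.00161), and Slfn8 by 1.12 ± 0.15 and 0.90 ± 0.15 (limma adjusted p = 1.8e-04 and 7.3e-04). At 10 h the changes were -0.87 ± 0.17 and -0.79 ± 0.17 for Slfn5 (limma adjusted p = 0.00263 and 0.00451) and -0.80 ± 0.15 and -0.56 ± 0.15 for Slfn8 (limma adjusted p = 0.00194 and 0.0129; 0.0654 and 0.0763 in wild type without untreated replicate 2 and without 10 h replicate 2). Slfn2 had 0.47 ± 0.12 at 10 h and 0.31 ± 0.12 at 24 h in wild type (limma adjusted p = 0.00853 and 0.0475), but its sign turned under quantile normalization, to -0.09 and -0.34, and single libraries ended both calls. These were 10 h replicate 1 (limma adjusted p = 0.0678) at 10 h, and untreated replicate 2 and both treated libraries (limma adjusted p = 0.193, 0.117 and 0.0759) at 24 h. Slfn1, at 0.356 to 1.06 FPKM, had 0.31 ± 0.10 at 10 h in knockout (limma adjusted p = 0.0391), which ended without any 1 of the 4 libraries compared (limma adjusted p = 0.0653 to 0.217).

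Set beside the promoter letters, the response element core was in 1 of 3 members with a window that were higher at 24 h in knockout, in 10 of 18 that were lower and in 10 of 15 that did not pass; without untreated knockout replicate 1 it was in 2 of 4 higher, 6 of 10 lower and 13 of 22 that did not pass. In wild type it was in 3 of 6 higher, 7 of 12 lower and 11 of 18 that did not pass. The STAT6-type palindrome was in 0 of 3 higher, 3 of 18 lower and 3 of 15 that did not pass in knockout. In wild type it was in 2 of 6 higher, 2 of 12 lower and 2 of 18 that did not pass.

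**Figure D3:**
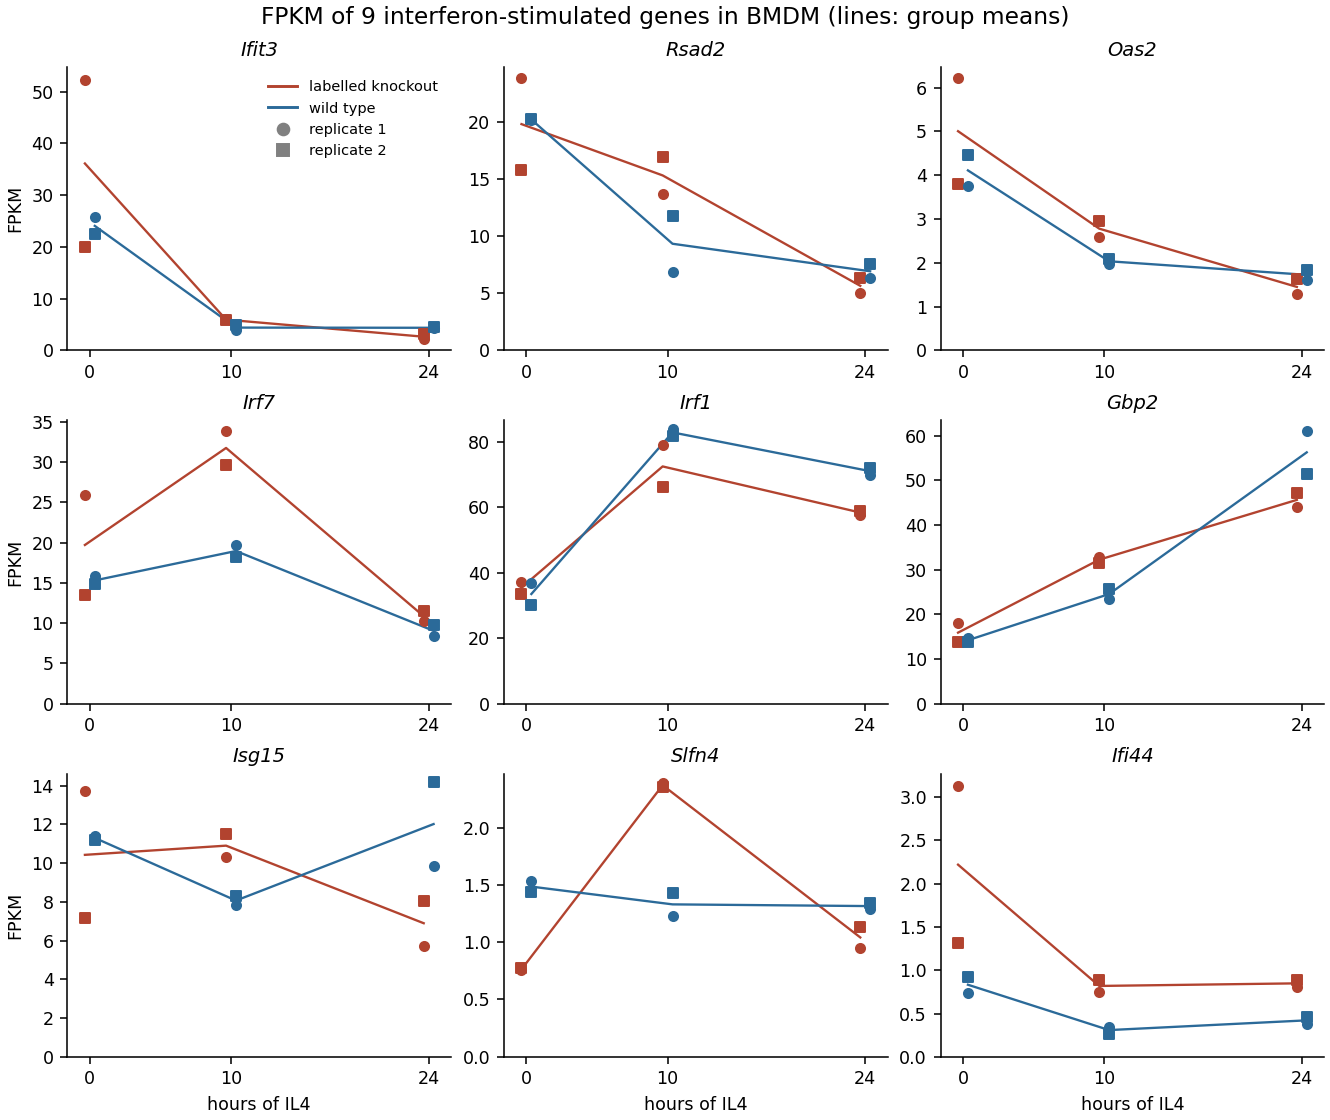
FPKM of 9 members at 0, 10 and 24 h of IL4, each point 1 library, with lines through the group means, for knockout and wild-type BMDM. Ifit3 falls to 2.14 and 3.15 FPKM at 24 h in knockout and 4.30 and 4.44 in wild type, Gbp2 reaches 44.1 and 47.2 against 61.1 and 51.5, and Slfn4 at 10 h is 2.39 and 2.35 against 1.23 and 1.43.

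Between 10 and 24 h the knockout cells had further falls. In knockout 9 members were lower and 1 higher at 24 h than at 10 h (all genes 10.9% lower and 12.1% higher), and in wild type 3 were lower and 3 higher (all genes 14.3% lower and 11.6% higher). Irf7 fell by 1.47 ± 0.22 in knockout and 0.99 ± 0.22 in wild type (limma adjusted p = 0.00105 and 0.00929), and Gbp5 by 0.60 ± 0.12 and 0.49 ± 0.12 (limma adjusted p = 0.00481 and 0.0128). Gbp2 rose by 0.49 ± 0.13 and 1.16 ± 0.13 (limma adjusted p = 0.0229 and 2.3e-04), and Gbp7 fell by 0.54 ± 0.15 and 0.69 ± 0.15 (limma adjusted p = 0.0268 and 0.00855). In knockout Slfn4 fell by 0.73 ± 0.09 and Rsad2 by 1.30 ± 0.23 (limma adjusted p = 3.1e-04 and 0.00277), and Mx1, Oas2 and Isg20 fell by 1.00 ± 0.26, 0.63 ± 0.17 and 0.51 ± 0.15 (limma adjusted p = 0.0170, 0.0222 and 0.0273). In wild type Gbp3 had 0.47 ± 0.15 (limma adjusted p = 0.0432). Single libraries ended several of these calls. In knockout, leaving out any 1 of the 4 libraries ended those of Gbp2, Oas2 and Gbp7 (limma adjusted p = 0.0678 to 0.130, 0.0529 to 0.136 and 0.0833 to 0.145). That of Mx1 ended without either 10 h library or 24 h replicate 1 (limma adjusted p = 0.0825, 0.0802 and 0.110), and that of Isg20 without 10 h or 24 h replicate 2 (limma adjusted p = 0.185 and 0.208). In wild type the calls of Gbp7 and Gbp5 ended without 10 h replicate 2 (limma adjusted p = 0.0772 and 0.0994), that of Irf7 without 10 h replicate 1 (0.0610), and that of Gbp3 without either 10 h library or 24 h replicate 1 (limma adjusted p of up to 0.165). With 1 library left out the knockout count was 4 to 7 and the wild-type count 2 to 5. The lowest knockout counts were 5, 4 and 5 without 10 h replicate 1, 10 h replicate 2 and 24 h replicate 1, and the lowest wild-type counts 3 and 2 without 10 h replicates 1 and 2.

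The IL4 responses of the genotypes shared part of their calls, to a degree that differed by time and direction. The share of all genes called in both genotypes was not counted, so the shared counts have no background. At 24 h all 16 members called lower in wild type were also called lower in knockout, as were 66.7% of the 24 called there, and all 3 called higher in knockout were called higher in wild type, 37.5% of the 8 called there. At 10 h 8 of 12 falls in each genotype were shared (66.7% of each list), and 4 rises were shared, 50% of the knockout and 66.7% of the wild-type list. Without untreated knockout replicate 1, 11 falls and 5 rises were shared at 24 h, 84.6% and 83.3% of the knockout and 68.8% and 62.5% of the wild-type lists, and 5 falls and 5 rises at 10 h, 100% and 62.5% of the knockout and 41.7% and 83.3% of the wild-type lists. A call in 1 genotype alone does not show a difference, which the interaction tested. For the 24 h response it called no member, with 6 at an unadjusted p under 0.05, where 0.0951% of all genes were called above and 0.2% below. The values of smallest p were -0.57 ± 0.21 for Isg20, -0.43 ± 0.16 for Slfn2 and -0.54 ± 0.21 for Gbp3 (limma adjusted p = 0.200, 0.216 and 0.221). The knockout response at 24 h was the lower one for 40 of the 46 members, with a median interaction of -0.23, but without untreated knockout replicate 1 the median was 0.05 and 29 members were above 0. Leaving out untreated wild-type replicate 1 or untreated knockout replicate 2 gave 1 call each.

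Slfn4 was the member whose IL4 response differed. It had 0.755 and 0.771 FPKM untreated, 2.39 and 2.35 at 10 h and 0.953 and 1.13 at 24 h in knockout cells and 1.53 and 1.44 FPKM untreated, 1.23 and 1.43 at 10 h and 1.29 and 1.34 at 24 h in wild-type cells. The knockout libraries were the lowest of all untreated, the highest at 10 h and the lowest at 24 h, and at each time the genotypes did not overlap. At 10 h the interaction was 1.03 ± 0.13 (limma adjusted p = 0.0113), where 0.0571% of all genes were called above and 0.0381% below; 3 members had an unadjusted p under 0.05. The IL4 change of Slfn4 at 10 h was 0.93 ± 0.09 in knockout and -0.09 ± 0.09 in wild type (limma adjusted p = 2.5e-05 and 0.439). Gbp5 and Rsad2 came next, with 0.46 ± 0.17 and 0.75 ± 0.33 (limma adjusted p = 0.994 and 0.994). The interaction of Slfn4 kept its size of 0.96 to 1.05 when any 1 of 6 libraries was left out but missed the threshold, with limma adjusted p = 0.0574 and 0.0911 without wild-type untreated replicate 2 and 10 h replicate 1, 0.0876 and 0.0715 without untreated knockout replicates 1 and 2, and 0.0735 and 0.0593 without 10 h knockout replicates 1 and 2. Its level of 0.755 to 2.39 FPKM is close to the filter, and it has close paralogs in the Schlafen cluster.

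Between the genotypes at a given time few members passed. In untreated BMDM 1 member was lower and none higher in knockout, with 6 at an unadjusted p under 0.05; of all genes 0.809% were called lower and 1.89% higher. At 10 h 1 was higher and none lower, with 8 at an unadjusted p under 0.05 (all genes 1.75% higher and 1.09% lower), and at 24 h none passed, with 5 at an unadjusted p under 0.05 (all genes 5.29% higher and 2.14% lower). The member called untreated and at 10 h was Slfn4, at -0.49 ± 0.09 and 0.53 ± 0.09 (limma adjusted p = 0.0164 and 0.0106). The untreated call was lost without wild-type replicate 2 or either knockout library (limma adjusted p = 0.0561, 0.143 and 0.108), and the 10 h call without any 1 of the 4 libraries compared (limma adjusted p = 0.0569 to 0.127). Without untreated wild-type replicate 1, or without untreated knockout replicate 2, 3 members passed untreated.

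The untreated median was 0.16, with 39 of 46 members higher in knockout, against 0.06 over all genes; without knockout replicate 1 it was -0.11, with 13 higher and none called, and without knockout replicate 2 it was 0.41, with Ifi44, Ifit3 and Oasl2 called. Every knockout library was above every wild-type library for 5 members untreated (Mx2, Ifi44, Parp11, Iigp1 and Slfn2; all genes 27.8%) and below for 2 (Slfn1 and Slfn4; all genes 14.7%). After Slfn4, the smallest p untreated were those of Parp11 and Ifi44, at 0.40 ± 0.11 and 0.75 ± 0.21 (limma adjusted p = 0.101 and 0.106).

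At 10 h the knockout libraries were above the wild-type libraries without overlap for 27 of the 46 members (all genes 28.7%) and below for 3, Irf1, Irf9 and Samhd1 (all genes 22.9%). Among the 27 were Irf7, at 33.9 and 29.6 FPKM in knockout against 19.7 and 18.2 in wild type, Rsad2, at 13.7 and 17.0 against 6.91 and 11.8, and Gbp5, at 2.73 and 2.98 against 1.85 and 2.06. Their differences were 0.72 ± 0.22, 0.70 ± 0.23 and 0.38 ± 0.12 (limma adjusted p = 0.186, 0.232 and 0.180), and Irf7 had 0.0187 when only the 4 libraries compared were fitted. The median of the 46 was 0.14 against 0.01 over all genes.

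At 24 h the knockout libraries were above without overlap for 7 (all genes 33.2%) and below for 15 (all genes 17.4%), with a median of -0.08 against 0.04 over all genes. Isg15 had 5.74 and 8.05 FPKM in knockout against 9.83 and 14.2 in wild type, and a difference of -0.72 ± 0.25 (limma adjusted p = 0.105). Slfn1 had 0.532 and 0.607 FPKM against 1.06 and 1.04, with -0.39 ± 0.10 (limma adjusted p = 0.0507; 0.0298 to 0.0427 with no filter, median-of-ratios scaling or quantile normalization), and Isg20 had -0.46 ± 0.15 (limma adjusted p = 0.0824). Of the 15 members below in knockout at 24 h 8 had been above at 10 h, namely Dhx58, Ifit2, Ifit3, Rsad2, Isg15, Gbp2, Gbp3 and Slfn4. Taken singly, 28.7% of all genes were above at 10 h and 17.4% below at 24 h. The share of all genes with both was not counted, so these 8 have no background.

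Averaged over the 3 times, 2 members were higher and 1 lower in knockout (all genes 7.06% and 2.88%). Ifi44 had 3.13 and 1.31 FPKM untreated, 0.753 and 0.884 at 10 h and 0.806 and 0.891 at 24 h in knockout and 0.739 and 0.926 FPKM untreated, 0.349 and 0.268 at 10 h and 0.377 and 0.465 at 24 h in wild type, above without overlap at each time, and an average difference of 0.54 ± 0.12 (limma adjusted p = 0.0184). Parp11, an ADP-ribosyltransferase, had 5.20 and 4.53 FPKM untreated, 4.24 and 3.81 at 10 h and 4.22 and 4.18 at 24 h in knockout and 3.70 and 3.19 FPKM untreated, 3.67 and 3.24 at 10 h and 3.32 and 3.95 at 24 h in wild type, also above at each time, at 0.25 ± 0.06 (limma adjusted p = 0.0323). Slfn1 was lower by 0.26 ± 0.06 (limma adjusted p = 0.0223). Leaving out 1 library ended the call of Parp11 in 9 of 12 cases, untreated knockout replicate 1 among them, that of Slfn1 in 6 and that of Ifi44 in 3 (limma adjusted p = 0.0506 to 0.113, 0.0513 to 0.0798 and 0.0547 to 0.0584). With single libraries left out 0 to 7 members passed: 0 without 10 h wild-type replicate 2, 10 h knockout replicate 2 or 24 h knockout replicate 2, 1 without 10 h or 24 h knockout replicate 1, 5 without untreated wild-type replicate 1 and 7 without untreated knockout replicate 2. Of the fibroblast markers 4 of 7 reached 1 FPKM, none was at 0 throughout, and their summed FPKM was 22.9 and 21.0 in untreated knockout against 4.48 and 4.82 in wild type, 19.6 and 20.4 against 4.97 and 4.31 at 10 h, and 9.24 and 9.43 against 2.41 and 2.43 at 24 h. Whether these markers bear on the genotype differences was not tested.

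**Figure D4:**
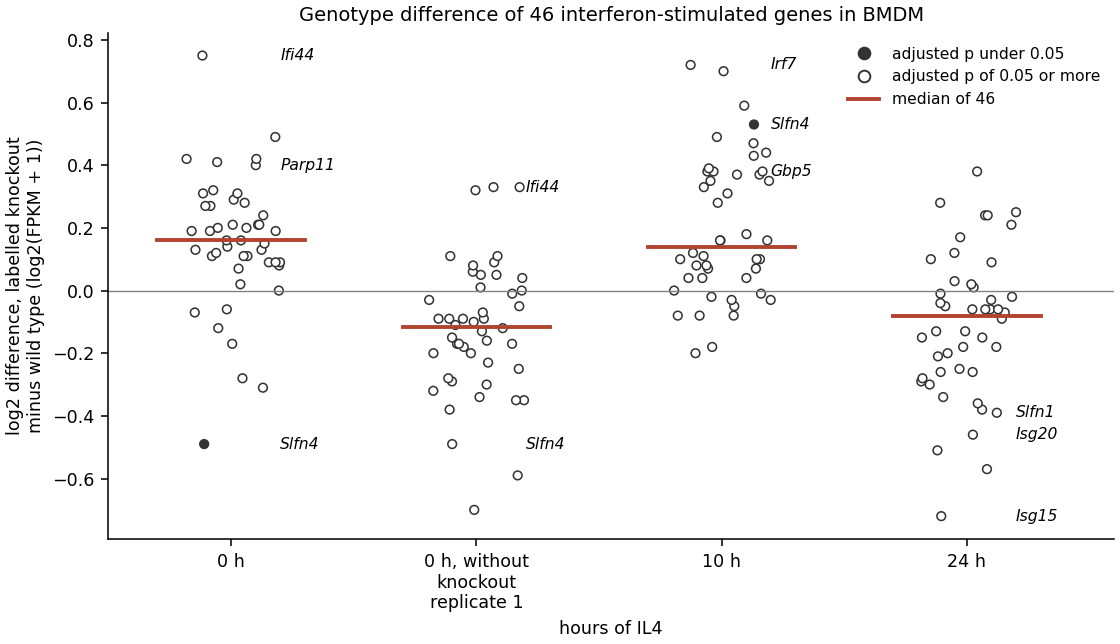
The knockout minus wild-type difference in log2(FPKM + 1) for each of the 46 members, untreated, untreated without knockout replicate 1, at 10 h and at 24 h. The medians are 0.16, -0.11, 0.14 and -0.08.

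In TAM the difference between myeloid knockout and wild type was above 0 for 45 of the 46 members, as for 61.9% of all genes, and 1 of them passed the test. The median difference was 1.30 against 0.09 over all genes, and the range was -0.20 for Slfn8 to 2.86 for Ifi44. Parp11 was the call (all genes 0.0505% called higher and 0.0505% lower), and 33 members had an unadjusted p under 0.05. Parp11 had 11.4, 11.4, 9.42 and 11.2 FPKM in knockout libraries 3 to 6 against 4.63, 4.36, 5.61 and 3.21 in wild-type libraries 1, 2, 7 and 8, with no overlap and a difference of 1.13 ± 0.15 (limma adjusted p = 0.0471). The call was lost without any 1 library other than wild-type library 8 (limma adjusted p = 0.0572 to 0.191), and it was 0.703 with knockout libraries 3 and 4, and 5 and 6, each averaged to 1. Those pairs lay close together, with a median absolute log2 difference of 0.0994 between 3 and 4 and 0.151 between 5 and 6 over 4540 genes above 10 FPKM, and 0.197 between wild-type 1 and 2; the labels do not tie them to the same mouse.

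Usp18 and Isg15 had the next smallest p. Usp18 had 81.9, 80.8, 48.1 and 59.7 FPKM in knockout against 23.5, 20.1, 34.4 and 6.23 in wild type, and a difference of 1.81 ± 0.45 (limma adjusted p = 0.141). Isg15 had 693, 659, 302 and 353 FPKM in knockout against 107, 126, 248 and 26.6 in wild type, and a difference of 2.26 ± 0.63 (limma adjusted p = 0.158). For both genes every knockout library was above every wild-type library. The same held for 15 of the 46 members, which were Irf9, Ddx58, Oasl2, Rsad2, Ifi44, Ifi35, Xaf1, Trim30a, Isg15, Usp18, Parp9, Parp11, Gbp3, Igtp and Iigp1, against 9.13% of all genes, and none lay below (all genes 3.27%). Without wild-type library 8 there were again 15, against 12% of all genes, and without knockout libraries 3 and 4 there were 16, against 20% of all genes. Without all of these libraries 16 lay above (all genes 27.9%) and 2, Samhd1 and Gbp2, below (1436 of all 9897 genes).

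The members ordered the libraries alike at both ends, as described above for libraries 3, 4 and 8. Irf7 had 726, 689, 401 and 393 FPKM in knockout against 245, 173, 430 and 29.0 in wild type. Ifi44 had 323, 300, 179 and 208 FPKM in knockout against 120, 96.6, 29.1 and 2.70 in wild type. Rsad2 had 169, 148, 100 and 101 FPKM in knockout against 53.6, 67.4, 66.1 and 10.2 in wild type. In each, knockout libraries 3 and 4 were the highest and wild-type library 8 the lowest, while wild-type library 7 was above knockout libraries 5 and 6 for Irf7 and below them for Ifi44 and Rsad2. Over the 46 members knockout 5 and 6 were both above wild-type 7 for 18, both below it for 14, and above all of wild-type 1, 2 and 7 for 16. Of all genes 27.9% had the last of these orders. The shares of all genes with the others were not counted, so the 18 and 14 have no background. Without wild-type library 8 the median difference was 0.82, with 45 members above 0 (all genes 64.1%) and 1 called. Without knockout libraries 3 and 4 it was 0.85, with 44 above 0 (all genes 60.2%) with 3 members at an unadjusted p under 0.05 and none of all genes called by limma, and Parp11 had 1.06 (limma adjusted p = 0.121). Without libraries 3, 4 and 8 the median was 0.40 against 0.08 over all genes, with 38 above 0 (all genes 59.5%) and Parp11 and Xaf1 called (all genes 1.57% higher).

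Gbp2 and Irf1 were among the members that overlapped between genotypes, unlike the GTPase genes Gbp3, Igtp and Iigp1 listed above. Gbp2 had 721, 722, 158 and 184 FPKM in knockout against 275, 354, 250 and 13.3 in wild type, and Irf1 had 312, 385, 121 and 98.8 FPKM in knockout against 138, 264, 113 and 38.6 in wild type. Wild-type libraries 1 and 2 were above knockout libraries 5 and 6 for both. Ifit3 had 191, 191, 89.3 and 128 FPKM in knockout against 63.7, 54.0, 141 and 17.7 in wild type. Slfn8 had 13.4, 11.4, 6.26 and 9.79 FPKM in knockout against 6.47, 8.84, 39.5 and 7.07 in wild type, where library 7 was the highest of all 8. The differences were 1.36 ± 1.05 for Gbp2, 0.79 ± 0.64 for Irf1, 1.38 ± 0.56 for Ifit3 and -0.20 ± 0.52 for Slfn8 (limma adjusted p = 0.517, 0.536, 0.266 and 0.865).

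By role, the median difference in TAM, with all libraries, was 0.97 for the 4 signalling factors, 1.24 for the 4 sensors, 1.43 for the 12 RNA-binding proteins and nucleic acid enzymes, 1.28 for the 9 other antiviral proteins, 1.33 for the 5 ISG15 and ADP-ribosylation genes, 1.36 for the 7 GTPases and 1.15 for the 5 Schlafen genes. Without libraries 3, 4 and 8 the same medians were 0.24, 0.42, 0.42, 0.64, 0.94, -0.11 and 0.01. Over the 8 libraries Gbp2 spanned 13.3 to 722 FPKM, Irf7 29.0 to 726, Slfn4 11.4 to 557 and Parp11, the lowest at its peak, 3.21 to 11.4. Markers of several cell types moved with these genes. All 7 monocyte markers were present, and their summed FPKM was 8740, 8814, 1634 and 2258 in knockout libraries 3 to 6 against 2761, 2715, 3762 and 232 in wild-type libraries 1, 2, 7 and 8, so that the libraries highest and lowest in the members were also highest and lowest in these markers. The summed FPKM of 7 fibroblast markers was 9.11, 14.5, 27.8 and 13.1 in knockout against 23.4, 27.0, 22.4 and 243 in wild type. Macrophage and endothelial markers separated the genotypes without overlap. All 8 macrophage markers were present, and their summed FPKM was 4420, 4312, 2527 and 2701 in knockout against 6227, 4919, 5401 and 7307 in wild type. Of 5 endothelial markers 3 reached 1 FPKM and none was at 0 throughout. Their sum was 22.6, 20.8, 49.8 and 50.6 in knockout against 10.5, 8.29, 19.5 and 5.40 in wild type. Pecam1 alone had 18.8, 17.0, 46.3 and 44.9 FPKM against 8.19, 6.22, 15.8 and 3.36. Kdr also lay above in knockout without overlap, while Cdh5, Vwf and Tek overlapped, with Cdh5 highest in wild-type library 8 at 1.71 FPKM. The part of any of these in the difference was not tested.

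**Figure D5:**
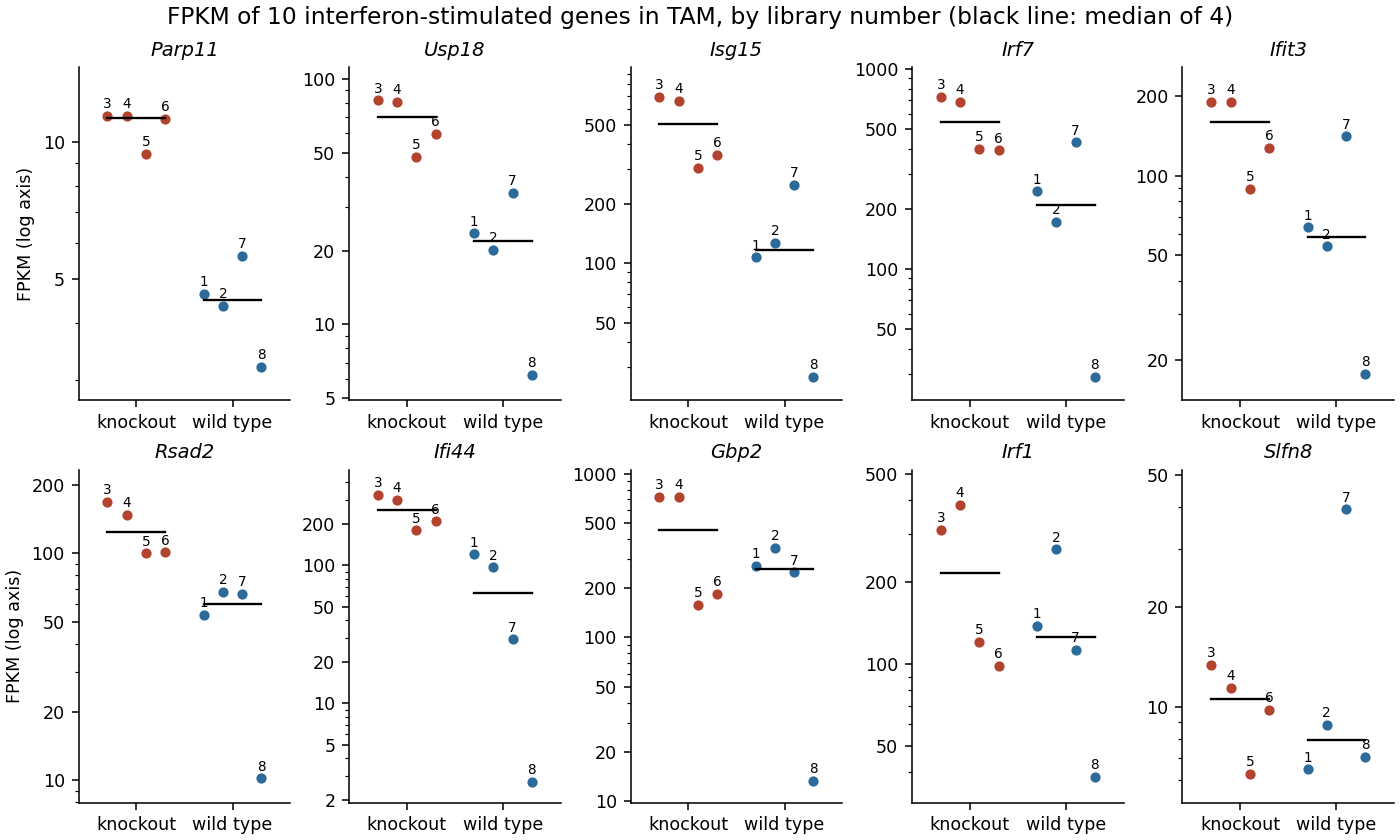
FPKM on a log axis of 10 members in the 8 TAM libraries, each point 1 library, with the 4 knockout libraries left of the 4 wild-type libraries. Parp11, Usp18 and Isg15 show no overlap between genotypes, and wild-type library 8 is the lowest for each of the 10 except Slfn8.

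The genes around this programme were counted from lists of interferon receptors, inducers and inhibitors. Of the 10 receptor and signalling genes 9 were tested in BMDM. Ifngr1, a chain of the interferon gamma receptor, had 66.4 and 69.6 FPKM in knockout against 103 and 99.1 in wild type at 10 h, and 88.3 and 95.7 against 127 and 126 at 24 h. It was lower in knockout by 0.57 ± 0.11 and 0.46 ± 0.11 (limma adjusted p = 0.0213 and 0.0340), with no overlap. Jak2, a kinase of that receptor, rose at 24 h of IL4 by 1.34 ± 0.09 in knockout and 1.17 ± 0.09 in wild type (limma adjusted p = 1.7e-06 and 4.6e-06), and of the 9 genes 3 were higher and 1 lower in knockout (2 and 0 without untreated replicate 1) and 4 and 1 in wild type. For these lists and those that follow, the shares of all genes called at 24 h were 26.5% higher and 17.1% lower in knockout and 29.7% and 20.3% in wild type. With all libraries Ifnar2, a chain of the type I interferon receptor, was the one lower in both, by 0.31 ± 0.11 in knockout and 0.35 ± 0.11 in wild type (limma adjusted p = 0.0433 and 0.0231). In TAM 134 gene models were listed at 0 in some library while above 10 FPKM in another.

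Socs1 and Cish, feedback inhibitors of cytokine signalling, rose in IL4. Of 9 such genes tested, 4 were higher at 24 h in knockout, and in wild type 4 were higher and 1 lower. Socs1, which blocks JAK kinases of the interferon and IL4 receptors, had 42.4 and 37.2 FPKM at 24 h in knockout against 0.443 and 0.420 untreated, and 26.8 and 50.6 in wild type against 0.585 and 0.735. Its changes were 4.83 ± 0.22 and 4.51 ± 0.22 (limma adjusted p = 7.2e-08 and 1.1e-07). Cish, another inhibitor of the family, rose by 2.44 ± 0.17 in knockout and 2.54 ± 0.17 in wild type (limma adjusted p = 1.3e-06 and 9.9e-07). Of 16 genes that induce interferon, such as sensors and their kinases, 5 were higher and 4 lower at 24 h in knockout (5 and 3 without untreated replicate 1) and 3 and 4 in wild type. Tlr7, a sensor of single-stranded RNA, fell by 1.53 ± 0.11 in knockout and 1.97 ± 0.11 in wild type (limma adjusted p = 2.4e-06 and 3.8e-07). Tlr4, the lipopolysaccharide receptor, rose by 0.83 ± 0.11 and 0.71 ± 0.11 (limma adjusted p = 1.6e-04 and 4.4e-04), and Irf5 by 0.73 ± 0.12 and 1.04 ± 0.12 (limma adjusted p = 5.6e-04 and 4.6e-05).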

How the data were processed

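RNA-seq of BMDM (12 libraries) and TAM (8 libraries) was used; 4 hydroxymethylation libraries were not analysed here, and values of some genes and motifs are not reported here. The authors deposited FPKM values per gene, 1 table for each kind of macrophage; TopHat, Cuffdiff, Bowtie2, MACS and mm9 are named in the submitters' processing notes, without roles. Counts were not used, so depth was judged only from steps in low values. Each table held 23309 rows and 23307 symbols, and every value column was matched to a library by its title.

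Values were analysed as log2(FPKM + 1) with limma 3.58.1 (trend) in R 4.3.3 over all genes reaching 1 FPKM in at least 2 BMDM or 4 TAM libraries. 1 fit held all 6 BMDM groups and another both TAM groups. Benjamini-Hochberg adjustment was over all genes, with a threshold of 0.05, in each of 13 comparisons, and the script was tested on simulated data. The labels call BMDM replicates biological and name none for TAM, where p-values measure only the spread between libraries.

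In each comparison up to 8 called members a direction with the smallest p are given in full, or 3 where fewer than 3 passed. The members, roles and lists were chosen with earlier results of these data known. Alternatives were a pseudocount of 0.1, no filter, a filter of 1 FPKM in every library, median-of-ratios scaling, quantile normalization, a fit of only the libraries compared, a replicate block and leaving out each library. Averaging of TAM libraries 3 and 4, and 5 and 6, leaving out 3 and 4 with or without 8, and a block with crossed numbers at 24 h were chosen after seeing the data. Tables and figures were made with Python 3.11.15, pandas 2.3.3 and matplotlib 3.10.9.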

Additional observations from a re-analysis of the deposited data

Results flagged for a closer look

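In 6 of 92 groups of 4 TAM libraries, 1 library lay far from the other 3; chance alone gives about 1 in 20. Wild-type library 8 was the lowest of its group for Irf9 at 12.9 FPKM, for Gbp3 at 11.3 FPKM and for Iigp1 at 4.43 FPKM. Wild-type library 7 was the highest for Slfn8, at 39.5 FPKM against 6.47 to 8.84 FPKM in the other wild-type libraries. Knockout library 4 was the lowest for Bst2 at 200 FPKM, and knockout library 5 for Parp11 at 9.42 FPKM.

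The 10 h IL4 response of Slfn4 differed between knockout and wild-type BMDM, with an interaction of 1.03 on the log2 scale. As given above, leaving out most single libraries ended this call. The gene lay at 0.755 to 2.39 FPKM in BMDM, close to the filter.

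For 5 members every knockout library lay above every wild-type library in TAM, and every knockout library below every wild-type library in BMDM at some time of IL4. Taken singly, 9.13% of all genes lay above in TAM, and in BMDM 22.9% lay below at 10 h and 17.4% at 24 h. The share of all genes with both was not counted, so these 5 have no background. These differences between BMDM and TAM were not tested. At 24 h the knockout minus wild-type difference in BMDM was -0.25 for Gbp3, -0.21 for Ifi35, -0.20 for Irf9, -0.72 for Isg15 and -0.26 for Rsad2, and at 10 h it was -0.05 for Irf9.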

How the results depend on the processing

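For the 93 values of named members, 1071 alternatives were computed: 920 kept direction and side of the threshold, 142 lost the call, 7 gained one and 2 reversed, both Slfn2 in wild type under quantile normalization, at -0.09 at 10 h and -0.34 at 24 h. Counts of members past the threshold with 1 library left out were 0 to 3 untreated, 0 to 0 at 10 h, 0 to 0 at 24 h and 0 to 7 on average for knockout against wild type, 10 to 26 in knockout and 11 to 16 in wild type for 10 h of IL4, 19 to 32 and 15 to 20 for 24 h, 4 to 7 and 2 to 5 for 24 h against 10 h, 0 to 1 for both interactions and 0 to 1 in TAM. A filter of 1 FPKM in every library, under which Slfn4 is not tested, gave 0 members untreated, 0 at 10 h, 1 on average and 0 for the 10 h interaction. Fitting only the libraries compared gave 0 untreated, 4 at 10 h and 18 for 24 h against 10 h in knockout. At 24 h 1 member passed with no filter, with median-of-ratios scaling or with quantile normalization. With no filter 14 passed for 24 h of IL4 in wild type and 5 for 24 h against 10 h in knockout. In TAM 0 passed with a pseudocount of 0.1, no filter, median-of-ratios scaling, quantile normalization, averaged pairs or knockout libraries 3 and 4 left out, and 2 with those and wild-type library 8 left out. The causes were not tested. Quantile normalization turned the median over all genes for 10 h in wild type to -0.011, against 0.094. Same-numbered replicates did not deviate together (15 correlations of -0.141 to 0.149). With a replicate block 1, 1, 0 and 3 members passed for knockout against wild type, 21 and 17 for 10 h of IL4 in knockout and wild type, 26 and 22 for 24 h, and 0 for the 24 h interaction. At 24 h 781 genes passed between genotypes, 619 with the block and 90 with crossed numbers. With 2 cultures a group in BMDM, and TAM libraries of unknown depth in counts, small changes and members near 1 FPKM are the least certain.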

Other observations

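A wider list of 53 other interferon targets, of which 48 were tested in BMDM, held genes that differed between genotypes. At 10 h of IL4 the guanylate-binding protein genes Gbp8 and Gbp9 were higher in knockout. Gbp9 had 14.7 and 13.7 FPKM in knockout against 8.49 and 8.93 in wild type, a difference of 0.65 ± 0.12, and Gbp8 had 2.25 and 1.94 against 1.02 and 0.827, a difference of 0.69 ± 0.12 (limma adjusted p = 0.0140 and 0.0115). Ifitm6, of the interferon-induced transmembrane family, had 1.99 and 1.94 FPKM in knockout against 4.58 and 4.41 in wild type at 10 h, and 8.87 and 9.14 against 19.4 and 27.4 at 24 h. It was lower in knockout by 0.89 ± 0.15 and 1.27 ± 0.15 (limma adjusted p = 0.00975 and 0.00166). Fcgr1, a high-affinity IgG receptor that is also a macrophage marker, had 21.4 and 22.1 FPKM against 34.8 and 33.8 at 10 h, lower by 0.63 ± 0.14 (limma adjusted p = 0.0407). The genotypes did not overlap for any of these values.

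After 24 h of IL4, 4 of the 48 were higher and 16 lower in knockout (all genes 26.5% higher and 17.1% lower), and 6 higher and 6 lower in wild type (all genes 29.7% and 20.3%). The knockout count uses the untreated library that stood apart, and without it 8 were higher and 6 lower (all genes 19.7% and 12%). Cd274, which encodes the checkpoint ligand PD-L1, had 14.4 and 14.2 FPKM in knockout against 10.1 and 9.88 untreated, and 13.1 and 13.5 in wild type against 8.86 and 9.85 untreated. It rose by 0.48 ± 0.09 and 0.47 ± 0.09 (limma adjusted p = 0.00176 and 0.00198). Fcgr1 fell by 1.32 ± 0.14 in knockout and 0.88 ± 0.14 in wild type (limma adjusted p = 3.4e-05 and 5.3e-04). In TAM none of the 51 tested passed in limma, with 27 at an unadjusted p under 0.05, and 48 had a difference above 0 (all genes 61.9%), with a median of 1.10 against 0.09 over all genes. Without knockout libraries 3 and 4 and wild-type library 8, 40 were above 0 (all genes 59.5%), with a median of 0.24.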
